A study of Mus musculus with 6 samples.

Results

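The proteasome, the protease complex that degrades ubiquitin-tagged proteins, was followed through 4 RNA libraries of mouse muscle satellite cells by its 48 genes whose symbols run from Psma to Psmg with a number, out of 24067 gene symbols in both expression tables. The members were chosen by a rule on the symbol, with earlier results of these data known. They comprise 14 constitutive core subunits, 17 subunits of the regulatory particle, the 3 catalytic subunits of the immunoproteasome, 7 assembly chaperones, 4 activators, the regulator Psmf1, and 2 core subunits known from germ cells and thymus (Psma8 and Psmb11). Satellite cells, the stem cells of adult skeletal muscle, were sequenced either freshly isolated (FISC) or activated by 36 h of culture (ASC). Each state had 1 wild-type library (WT) and 1 library labelled Yy1 iKo, written iKO here (Yy1 encodes the zinc finger transcription factor YY1), and 1 YY1 immunoprecipitation with 1 input came from ASC of C57 mice. The labels give adult muscle as the source. The driver and timing of the deletion, the age in weeks and sex of the mice and any pooling of animals were not given in the labels used here. With 1 library per group no difference has a replicate check, and every value below describes these libraries only, without a test.

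The proteasome is a barrel, the core particle, capped by a regulatory particle. The barrel stacks rings of alpha subunits, which gate the entry, around rings of beta subunits, of which Psmb5, Psmb6 and Psmb7 cut peptide bonds. The base of the cap holds the ATPases Psmc1 to Psmc6, which unfold the substrate, and the lid holds Psmd14, which removes the ubiquitin chain. Interferon induces Psmb8, Psmb9 and Psmb10, which take the place of the cutting subunits and change the peptides offered to T cells. Proteasome genes are known to be transcribed together, largely under NFE2L1, a factor that is released by the protease DDI2 when proteasome activity falls short. In muscle the proteasome removes damaged and contractile proteins, and its activity is known for its part in muscle wasting.

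Expression is given in FPKM, a fragment count divided by transcript length and library size, so levels may be compared between genes. Ratios are log2 of FPKM + 1 in iKO over FPKM + 1 in WT, and a gene is called higher or lower at 2-fold on that scale, a rule of size. The 4 libraries listed between 10628 and 10926 of the shared genes at 1 FPKM or more. If FPKM was scaled by read totals, which is not stated, steps among low values put the FISC libraries at equal depth (1.00 iKO reads per WT read). On the same condition the ASC WT library had 1.5 times the depth of its iKO partner. Of the genes with low values, 19.3% in FISC and 7.37% in ASC lay on such a step. Yy1 itself stood at 51.0 and 20.1 FPKM in FISC WT and iKO, and at 55.2 and 2.03 FPKM in ASC WT and iKO. All 9 satellite cell markers, Pax7 among them, were at 1 FPKM or more in all 4 libraries. In ASC, however, 8 of the 9 had an iKO over WT ratio below 0, with a median log2 ratio of −0.48. Of the 9, 2 were at least 2-fold lower, beside 8.26% of all genes. Pax7 stood at 61.8 and 78.3 FPKM in FISC WT and iKO and at 28.3 and 6.19 FPKM in ASC WT and iKO (−2.03), and Vcam1 at 62.2 and 27.6 FPKM in ASC (−1.14). The part of these markers' difference in the ASC ratios of the proteasome genes was not tested. In RNA from bulk cells, fewer cells of a type and less RNA per cell cannot be told apart.

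YY1 peaks stood at the ends of 5 of the 48 proteasome loci in ASC, counting peak summits within 2 kb of either end of the listed locus. That is 10.4% of members, beside 3.64% of all genes and 6.30% of genes with at least 1 FPKM in ASC WT. Of genes with at least 50 FPKM there, 10% had one. All 5 are among the 35 members in that range, in which most proteasome genes lie. The highest of the 5 was at Psmb5, the subunit that cuts after hydrophobic residues (chromosome 14, 55232957 to 55236832, mm9). Its summit lay 59 bp outside the upper end of the locus, which is the start of this minus-strand gene, with the authors' fold of 13.4, −log10 q of 21.1 and rank 28 by p among 2031 peaks. Mir686 is listed at the same locus as Psmb5 and lay within 2 kb of this summit too, so the FPKM of Psmb5 is uncertain. At Psmd7, a lid subunit (chromosome 8, 110104280 to 110112382), a summit lay 49 bp outside the upper end, with a fold of 6.74, −log10 q of 5.16 and rank 163. At the ATPase Psmc5 (chromosome 11, 106117499 to 106124426) the summit lay 304 bp outside the start, with a fold of 5.75, −log10 q of 3.23 and rank 229, and within 2 kb of Ftsj3 as well.

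The other peaks were weak by the authors' own values. At the lid subunit Psmd11 (chromosome 11, 80242117 to 80285635) a summit lay 42 bp inside the start with −log10 q of 0.329, and at the alpha subunit Psma7 (chromosome 2, 179771072 to 179777169) one lay 1961 bp inside the upper end with −log10 q of 0.246, the median of the whole list, and within 2 kb of Ss18l1 as well. Among peaks with −log10 q of at least 5, which number 171, only Psmb5 and Psmd7 kept a peak, 2 of 48 members. The share was 0.960% of all genes, 1.82% of those with at least 1 FPKM in ASC WT and 2.76% of those with at least 50 FPKM. Psmb5 and Psmd7 are both among the 35 members with at least 50 FPKM in ASC WT. Names in the list are numbered up to 20534, so it holds a selection of the peaks once called, made by a step not stated. A further peak lay 4523 bp outside the upper end of Psma2, nearer to AW209491. The fold, p and q are the authors' values for their list, which came from 1 immunoprecipitation.

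Promoter sequences, 250 bases before to 50 after the gene start from RefSeq (GRCm38.p6), were at hand for 40 of the 48 members. The letters AANATGGC, the core of the YY1 motif, were searched on both strands. They stood in 6 of 40 member promoters (15%) and in 6.23% of all 27025 promoters searched. The share among promoters of expressed genes only was not computed. The 6 were Psma2, Psma4, Psmb5, Psmb6, Psmc5 and Psmd8, none of the matches overlapping another motif searched here. Psmb5 and Psmc5 are printed because a YY1 peak lay at their start and they hold the letters. Psmb6 and Psma2 are printed because they carry the same letters with no peak summit within 2 kb. Psmd11 and Psma7, which had a peak within 2 kb too, held no match, and Psmd7 had no promoter at hand. Each line runs 5′ to 3′ on the strand of the gene, with the matches in capitals.
Psmb5 (chr14:54617946-54618245, strand minus): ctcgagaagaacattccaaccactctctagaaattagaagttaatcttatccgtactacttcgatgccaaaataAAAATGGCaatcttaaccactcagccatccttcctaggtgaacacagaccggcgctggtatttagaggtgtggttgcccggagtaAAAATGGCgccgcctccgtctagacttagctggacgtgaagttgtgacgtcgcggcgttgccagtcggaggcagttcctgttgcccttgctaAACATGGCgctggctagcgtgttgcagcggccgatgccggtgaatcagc
Psmc5 (chr11:106255935-106256234, strand plus): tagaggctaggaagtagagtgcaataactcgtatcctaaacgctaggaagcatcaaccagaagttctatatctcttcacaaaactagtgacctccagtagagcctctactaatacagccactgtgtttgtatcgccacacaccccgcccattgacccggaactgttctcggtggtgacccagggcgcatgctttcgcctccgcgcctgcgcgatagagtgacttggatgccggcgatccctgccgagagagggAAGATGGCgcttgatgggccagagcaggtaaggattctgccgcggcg
Psmb6 (chr11:70525107-70525406, strand plus): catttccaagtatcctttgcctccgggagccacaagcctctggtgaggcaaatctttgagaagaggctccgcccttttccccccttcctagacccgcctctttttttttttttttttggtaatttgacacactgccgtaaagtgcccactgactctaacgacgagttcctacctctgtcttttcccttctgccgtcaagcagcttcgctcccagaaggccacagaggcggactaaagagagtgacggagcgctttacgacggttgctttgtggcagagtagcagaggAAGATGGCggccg
Psma2 (chr13:14612992-14613291, strand plus): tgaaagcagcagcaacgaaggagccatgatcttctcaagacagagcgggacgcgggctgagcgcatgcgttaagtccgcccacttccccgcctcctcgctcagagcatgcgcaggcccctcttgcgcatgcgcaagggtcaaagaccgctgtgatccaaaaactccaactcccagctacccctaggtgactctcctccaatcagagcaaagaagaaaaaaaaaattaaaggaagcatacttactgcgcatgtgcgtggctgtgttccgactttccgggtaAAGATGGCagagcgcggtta
Psmb5 held 3 matches, starting at base −176, −91 and 2 relative to the gene start. In Psmc5 the only match started at base 4, some way from its summit, which lay outside this window. Psmb6 and Psma2 had theirs at base 38 and 31, past the gene start as in Psmc5. A match describes the letters and shows no binding.

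Other motifs were present to differing degrees, again set beside all promoters and not those of expressed genes only. The motif of nuclear respiratory factor 1, searched on both strands like the rest, stood in 7 of 40 member promoters (17.5%) and 4.78% of all. The antioxidant response core TGANNNNGC, which NFE2L1 can bind, stood in 22 of 40 (55%) and 41.4% of all. The GC box GGGCGG was in 23 of 40 (57.5%) beside 35.9%, and CCAAT, the letters of NF-Y, in 14 of 40 (35%) beside 37.9%. The interferon-stimulated response element was in 5 of 40 (12.5%) beside 3.49%, namely in Psmb3, Psmd4, Psmd9, Psme1 and Psmg4.

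The levels of the members were ordered by role. In the FISC WT library the 14 core subunits had a median of 67.2 FPKM, the 17 regulatory subunits 53.9 FPKM, the assembly chaperones 8.01 FPKM and the 3 immunoproteasome subunits 9.24 FPKM, while the median of all genes at 1 FPKM or more was 10.3 FPKM. Psmb4, a beta subunit without catalytic activity, was the highest member at 187 FPKM in FISC WT and 167 FPKM in FISC iKO. Among 46 members the levels of the FISC libraries went together (Spearman 0.98, over genes and not replicates), and so did those of the ASC libraries (0.94). Psma8 was listed at 0 in all 4 libraries and Psmb11 stood between 0.0486 and 0.122 FPKM. The other 46 members were at 1 FPKM or more in each of the 4 libraries, so none entered the ratios through its higher group alone.

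The order within a role differed between the states. In the alpha ring Psma1 was the lowest in FISC WT, at 38.3 FPKM, with 44.2 FPKM in FISC iKO and 157 and 286 FPKM in ASC WT and iKO, and it stayed the lowest in all 4 libraries. Among the ATPases Psmc2 ran at 32.9, 32.2, 112 and 197 FPKM in the same order of libraries, and Psmc6 at 101, 101, 156 and 260 FPKM. Psmc6 was thus the highest ATPase in both FISC libraries, a place taken by Psmc3 in ASC WT and by Psmc5 in ASC iKO. In the lid Psmd13 ran at 20.0, 20.5, 110 and 167 FPKM and Psmd8, the highest in FISC, at 123, 110, 178 and 202 FPKM. The base scaffold Psmd1 ran at 23.9, 23.1, 103 and 110 FPKM, the lowest of its group in each library. Psmd10, a chaperone of the base, was low throughout at 4.17, 3.81, 16.7 and 22.1 FPKM, and its fellow Psmd9 ran at 8.01, 9.02, 17.8 and 35.9 FPKM. Psme4 was the lowest activator in all 4 libraries, at 19.3, 16.1, 29.4 and 19.3 FPKM, and Psmf1 ran at 3.81, 4.12, 13.6 and 15.6 FPKM.

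Levels within the core and within the regulatory particle lay closer together in activated cells, and those of other roles did not all do so. The coefficient of variation over the 14 core subunits was 49.4% in FISC WT and 42.1% in FISC iKO, and 19.7% in ASC WT and 25.9% in ASC iKO. Over the regulatory particle it was 50.9% and 51.2% in FISC WT and iKO, and 20.6% and 30.6% in ASC. The 4 chaperones of core assembly, Psmg1 to Psmg4, ran from 6.85 to 51.9 FPKM in FISC WT but only from 45.7 to 48.8 FPKM in ASC WT. The immunoproteasome subunits went the other way, with coefficients of 48.8% and 57.05% in FISC WT and iKO and 111% and 138% in ASC WT and iKO. For the chaperones of the base they were 31.3% and 40.8% in FISC and 86.4% and 47.0% in ASC, and for the activators 48.9% and 46.4%, then 50.3% and 69.8%.

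**Figure D1:**
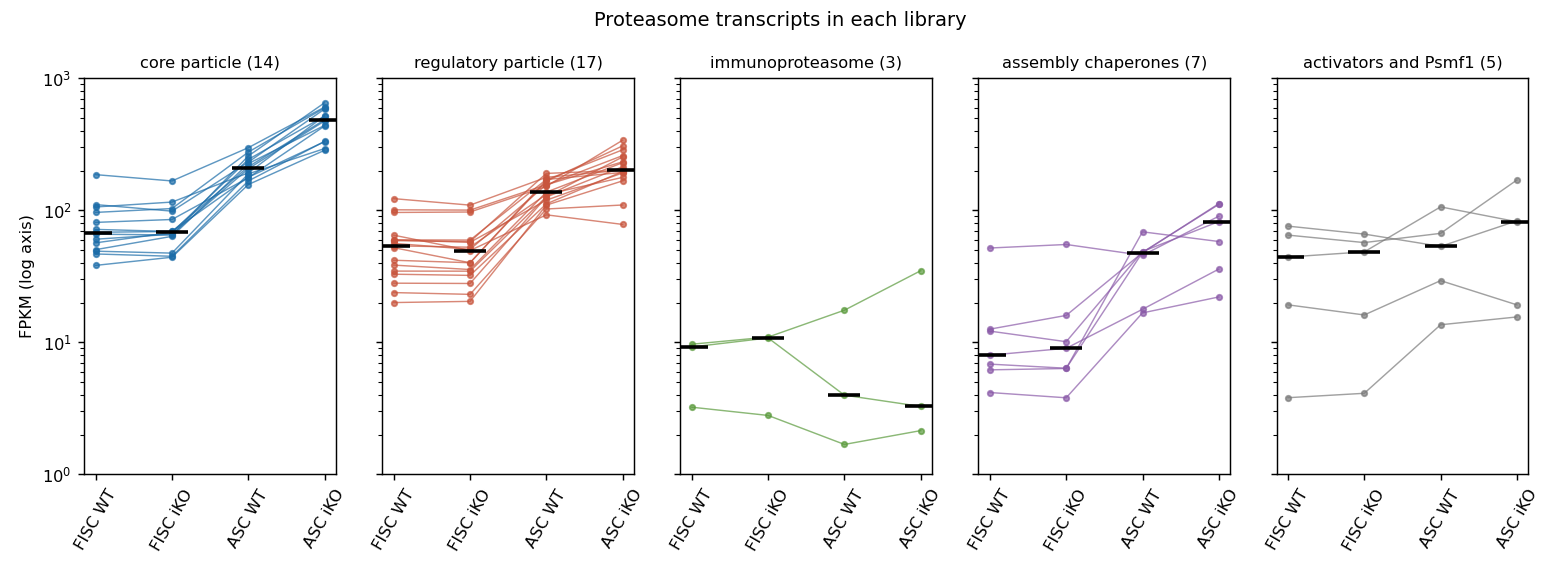
FPKM on a log axis of the 46 measured proteasome genes in the 4 libraries, by role; each line is 1 gene and each black bar the median of its panel. Core medians run from 67.2 FPKM in FISC WT to 481 FPKM in ASC iKO, while 2 of 3 immunoproteasome genes are lower in ASC than in FISC.

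In freshly isolated cells the proteasome genes did not differ between the genotypes by as much as 1.5-fold. None of 46 members was 2-fold higher or lower in the iKO library, where 0.677% of all genes were higher and 0.721% lower. None passed 1.5-fold either, beside 3.21% higher and 4.11% lower of all genes. The median log2 ratio was −0.02, that of all genes −0.00, and the members ran from −0.38 to 0.33. The highest ratio was that of Psmb5, at 50.4 FPKM in WT and 63.6 FPKM in iKO. Lowest were Psmd11, which stood at 64.9 and 49.7 FPKM, and Psmc5 at 52.2 and 40.1 FPKM. These 3 carry a YY1 peak at a locus end in ASC, and they lie at opposite sides of 0. Psmg2, without such a peak, lay close to Psmb5 at 0.32. Over the 5 members with a peak the median was −0.15 in FISC and 0.88 in ASC. Over the 41 measured members without one it was −0.02 and 0.76. By role, 8 of 14 core subunits were above 0 and 15 of 17 regulatory subunits were below 0, at a median of −0.03. Of these 17, 2 lay below the lower quartile of all genes (−0.19). Scaling by the upper quartile turned the median of all members to 0.01. It also put the regulatory subunits Psmc2, Psmc3, Psmc6, Psmd2, Psmd3, Psmd6 and Psmd14 above 0. The side of 0 thus rests on the scaling, for the regulatory subunits too.

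In activated cells the core subunits were higher in the iKO library and the regulatory subunits less so. Of 46 members 13 were at least 2-fold higher and none was 2-fold lower, 28.3% higher where 8.74% of all genes were higher and 8.26% lower. The median log2 ratio of the members was 0.78, that of all genes −0.00. These counts use the deposited scaling, and another scaling, described after the roles, leaves 0 members higher. At 1.5-fold 32 members were higher and 1 lower, beside 21.3% and 20.2% of all genes, and 33 lay above the upper quartile of all genes, above which 25% of them lie. Highly expressed genes as a whole had higher ratios in this pair. Of the 35 members with at least 50 FPKM in ASC WT, 11 were 2-fold higher, beside 18.1% of all 1846 such genes, and the medians were 0.81 and 0.35.

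With the deposited scaling all 14 constitutive core subunits were at least 1.5-fold higher in ASC iKO, and 9 passed 2-fold. Of all genes, 21.3% and 8.74% did so. All 14 had at least 50 FPKM in ASC WT, and of all genes in that range 18.1% passed 2-fold. Psmb6, which cuts after acidic residues, stood at 106 and 116 FPKM in FISC WT and iKO, and at 193 and 521 FPKM in ASC WT and iKO, a log2 ratio of 1.43 in ASC. Psmb7, which cuts after basic residues, was at 96.6 and 103 FPKM in FISC and at 276 and 598 FPKM in ASC (1.11). Psmb5 was at 226 and 441 FPKM in ASC, just short of 2-fold (0.96). In each of these 3 pairs of ASC values the iKO library was the highest of the 4 libraries. Of the remaining beta ring, Psmb3 stood at 66.1 and 65.1 FPKM in FISC and at 258 and 654 FPKM in ASC (1.34), the highest level of any member. Psmb1 was at 81.2 and 85.4 FPKM in FISC and at 177 and 436 FPKM in ASC (1.30). Psmb4 reached 299 and 607 FPKM in ASC (1.02), while Psmb2, at 68.3 and 69.3 FPKM in FISC, reached 178 and 332 FPKM (0.89). The 4 subunits without catalytic activity thus lay within 1.5-fold in FISC and had higher values in ASC iKO than in ASC WT. Among the alpha subunits Psma3 had the highest ratio, at 111 and 98.7 FPKM in FISC and at 232 and 587 FPKM in ASC (1.33), a value that is uncertain because 3110056K07Rik is listed at that locus too. Psma2 was at 60.5 and 66.0 FPKM in FISC and at 207 and 476 FPKM in ASC (1.20). Psma6 was at 71.8 and 69.2 FPKM in FISC and at 214 and 486 FPKM in ASC (1.18), and Psma7 at 56.8 and 68.1 FPKM and then at 243 and 518 FPKM (1.09). Short of 2-fold were Psma5 (0.99), Psma1 (0.86) and Psma4, the lowest core ratio, at 49.1 and 47.5 FPKM in FISC and 189 and 294 FPKM in ASC (0.63), uncertain because of AY074887 at its locus. Across the alpha ring, too, the ASC iKO library was the highest of the 4 for each of the 7 subunits.

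Of the 17 regulatory subunits only Psmd4, the ubiquitin receptor of the base, passed 2-fold, at 96.5 and 97.3 FPKM in FISC WT and iKO and at 152 and 340 FPKM in ASC WT and iKO (1.16). Psmd6 of the lid came next at 127 and 254 FPKM (1.00, just under 2-fold). The ATPases Psmc1, Psmc2, Psmc4, Psmc5 and Psmc6 lay between 0.73 and 0.88, among them Psmc5 at 167 and 308 FPKM. Psmc3 was apart from them at 172 and 194 FPKM (0.18). The scaffold subunits of the base did not follow: Psmd2 stood at 191 and 201 FPKM (0.08) and Psmd1 at 103 and 110 FPKM (0.10), the latter listed at the locus of Htr2b. In the lid, Psmd14 was at 126 and 214 FPKM (0.76), Psmd7 at 156 and 234 FPKM (0.58), Psmd3 at 132 and 178 FPKM (0.43) and Psmd8 at 178 and 202 FPKM (0.18). Psmd11 alone of the regulatory particle was below 0, at 92.6 and 78.3 FPKM (−0.24).

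The ratio of median transcript levels, core over regulatory particle, differed with it. The core median over the regulatory median was 1.25 in FISC WT and 1.38 in FISC iKO, 1.53 in ASC WT and 2.38 in ASC iKO. A ratio within a library does not depend on how that library is scaled. The part of transcript length in it was not tested. ASC iKO was the highest of the 4 libraries, with medians of 481 and 202 FPKM, and ASC WT followed with 211 and 138 FPKM. The ratios of single subunits overlapped between the particles, since Psma4 at 0.63 lay below the ATPase Psmc5 at 0.88 and below Psmd4 at 1.16.

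**Figure D2:**
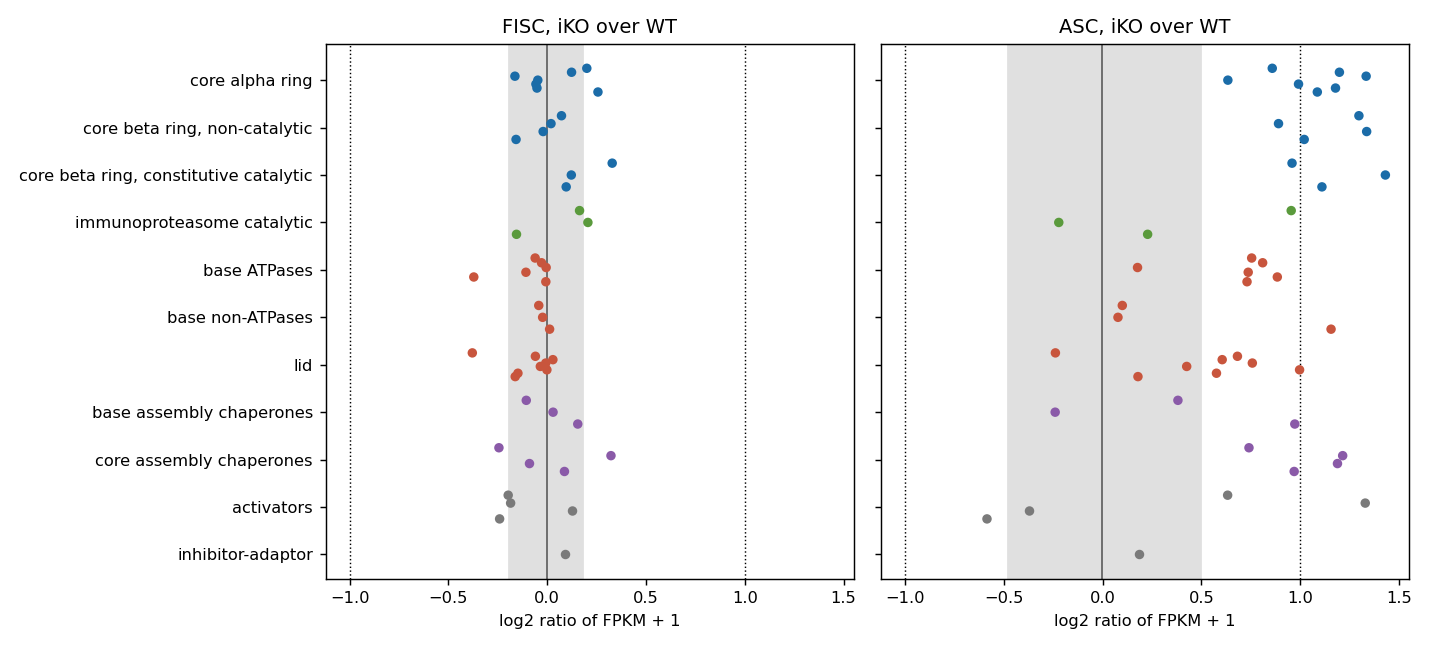
Log2 ratio of FPKM + 1, iKO over WT, of each proteasome gene by role, in FISC (left) and ASC (right); the grey band spans the quartiles of all genes, the solid line their median, and dotted lines mark 2-fold. All 14 core subunits lie right of the band in ASC, and all members lie within 1.5-fold in FISC.

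Ratios of the assembly chaperones in ASC ran from −0.24 to 1.22, and those of core and base chaperones overlapped. Psmg2 stood at 12.6 and 16.0 FPKM in FISC WT and iKO, and at 47.9 and 112 FPKM in ASC WT and iKO (1.22). Psmg3 was at 6.85 and 6.37 FPKM in FISC and at 48.2 and 111 FPKM in ASC (1.19). Psmg4 (51.9 and 55.2 FPKM in FISC, 45.7 and 90.4 FPKM in ASC, 0.97) and Psmg1 (48.8 and 82.3 FPKM, 0.74) stayed under 2-fold. These 4 help to build the alpha ring. Of the chaperones that guide the base, Psmd9 was at 17.8 and 35.9 FPKM in ASC (0.97), Psmd10 at 16.7 and 22.1 FPKM (0.38) and Psmd5 the other way at 68.8 and 58.1 FPKM (−0.24).

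The activators, which open the barrel without the regulatory particle, went both ways in activated cells. Psme2 stood at 65.0 and 57.1 FPKM in FISC WT and iKO and at 67.0 and 170 FPKM in ASC WT and iKO (1.33), so the ASC iKO library was apart from the other 3. Its copy Psme2b was listed at 0.224 and 0.22 FPKM in ASC WT and iKO. Psme1, the partner of Psme2 in a mixed ring, was at 76.0 and 66.2 FPKM in FISC and at 53.4 and 83.3 FPKM in ASC (0.63), at a locus listed for Emc9 too. The nuclear activators were on the other side of 0: Psme3 stood at 106 and 82.1 FPKM in ASC (−0.37) and Psme4 at 29.4 and 19.3 FPKM (−0.59), the only member 1.5-fold lower. Psmf1, an inhibitor of the barrel in the test tube, lay at 13.6 and 15.6 FPKM (0.18).

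The ratio in ASC moved with the length of the listed locus over all genes (Pearson −0.40, Spearman −0.44, over 11182 genes). Over the 46 members the corresponding values were −0.21 and −0.10, and over the 31 core and regulatory subunits −0.17 and −0.06. Of the members, 36 of 46 lay above the median of all genes in their own class when all genes were cut into 10 classes of locus length. Psmb7, with a locus of 55.9 kb, and Psma3, with 41.2 kb, were 2-fold higher, where 3.32% and 3.31% of all genes in their length classes were. In the shortest class 4 of 7 members were 2-fold higher, beside 29.0% of all genes. In the next class, which holds the most members, 1 of 11 was, beside 16.0% of all genes. There 6 of the 11 lay above the class median. Conversely, Psmb8, Psmc3 and Psmd8 have loci of 3.26 kb, 5.42 kb and 6.49 kb and lay at −0.22, 0.18 and 0.18. The part of transcript length, depth or RNA quality in these ratios was not tested.

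**Figure D3:**
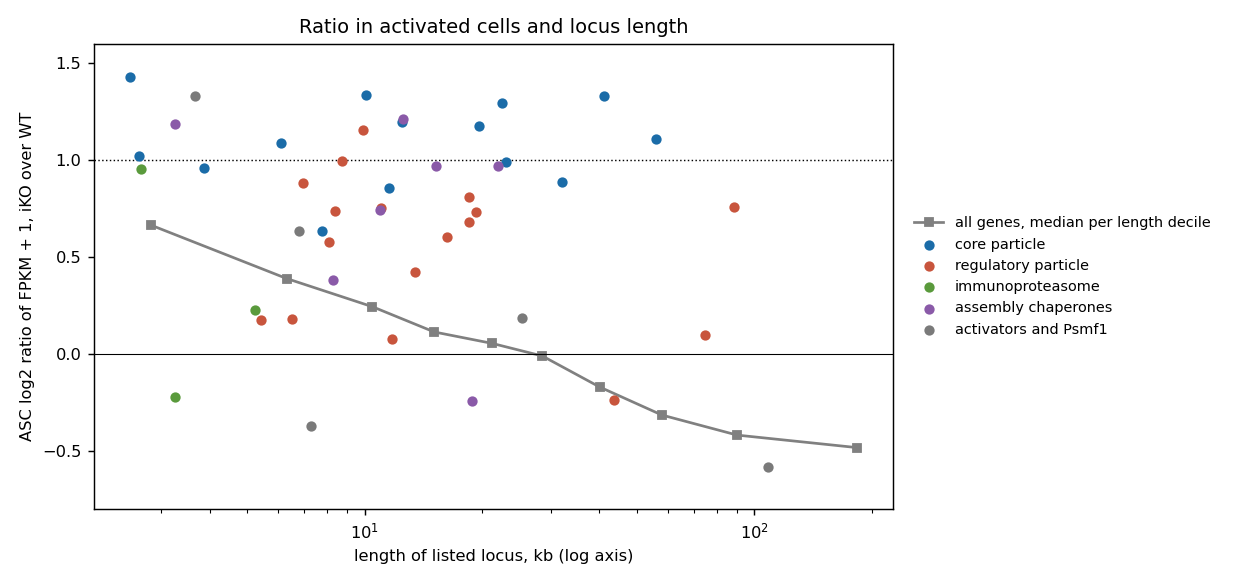
ASC log2 ratio, iKO over WT, of 46 proteasome genes against the length of the listed locus in kb (log axis), coloured by role; grey squares join the medians of all genes in 10 classes of locus length. Core subunits lie above the line of all genes at lengths from 2.50 to 55.9 kb.

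The ASC counts depend on how the iKO library is scaled. A single small RNA gene, Mir762, was listed at 496241 FPKM in ASC iKO, 39.8% of the sum, and at 0 in ASC WT. With upper-quartile scaling 10 members were 2-fold higher and 0 lower, where 5.82% of all genes were higher and 10.7% lower. With equal sums of FPKM outside small RNA genes, an alternative chosen after the data were seen, 0 members were 2-fold higher and 1 was lower, where 1.46% of all genes were higher and 22% lower. The median of all genes was then −0.49 and that of the members 0.22, so the members lay 0.70 above it, against 0.79 with the deposited values.

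The immunoproteasome subunits stood far below their constitutive partners in all 4 libraries, and further below in activated cells. Psmb8, the partner of Psmb5, was at 9.24 and 10.8 FPKM in FISC WT and iKO and at 3.98 and 3.27 FPKM in ASC WT and iKO. Its share of the pair's FPKM was 15.5% and 14.5% in FISC, and 1.73% and 0.737% in ASC. Psmb9, the partner of Psmb6, was at 3.23 and 2.80 FPKM in FISC and at 1.69 and 2.15 FPKM in ASC, with shares of 2.95% and 2.36%, and then 0.868% and 0.41%. Both ASC libraries thus lay below both FISC libraries for these shares, and ASC iKO was the lowest. The share of Psmb10, the partner of Psmb7, differed less, at 9.12% and 9.6% in FISC and 5.97% and 5.52% in ASC. Its level went the other way from Psmb8 and Psmb9 with culture, with 9.69 and 10.98 FPKM in FISC and 17.5 and 34.9 FPKM in ASC. The lower shares in ASC iKO than in ASC WT came with higher constitutive values, since Psmb9 and Psmb10 had ASC ratios of 0.23 and 0.95 and only Psmb8 was below 0 (−0.22).

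Markers of other cell types of muscle also differed between the states. The 12 immune markers summed to 14.3 and 13.2 FPKM in FISC WT and iKO, with 4 of 12 at 1 FPKM or more, and to 4.65 and 16.5 FPKM in ASC WT and iKO, with 2 of 12. Ptprc, the pan-leukocyte antigen, Cd74, Adgre1 and Tyrobp were at 0 in both ASC libraries. The 2 immune markers at 1 FPKM or more in ASC, both known from macrophages, were more than 2-fold higher in ASC iKO. Of all genes 8.74% were at least 2-fold higher there. Cd68 stood at 1.36 FPKM in ASC WT and 5.16 FPKM in ASC iKO (1.38), and Cd14 at 2.80 and 9.75 FPKM (2.83-fold on the FPKM + 1 scale). The 7 endothelial markers summed to 21.4 and 18.5 FPKM in FISC and to 3.25 and 3.49 FPKM in ASC. Fibroblast markers summed to 185 and 196 FPKM in FISC and to 11.1 and 7.76 FPKM in ASC. Pericyte markers ran from 22.2 and 22.5 FPKM to 1.65 and 0.816 FPKM, Schwann cell markers from 12.1 and 11.01 FPKM to 2.17 and 1.90 FPKM and myofibre markers from 21.7 and 25.4 FPKM to 5.44 and 2.91 FPKM. The part of these cells in the immunoproteasome values was not tested.

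**Figure D4:**
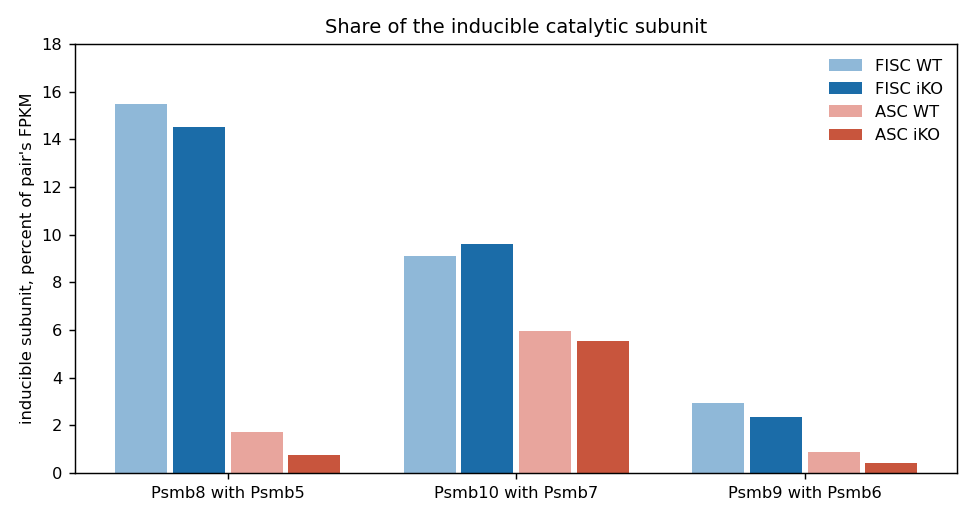
Share of the inducible catalytic subunit in the summed FPKM of each inducible and constitutive pair, in percent, as bars for the 4 libraries. The Psmb8 share is 15.5% and 14.5% in FISC and 1.73% and 0.737% in ASC.

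With culture the proteasome genes were higher relative to the median gene, in both genotypes. The 2 states come from separate tables, so the ASC values were scaled to a median ratio of 0 over genes with at least 1 FPKM in both libraries, and the values are description only. In WT 25 of 46 members were 2-fold higher and 1 lower, where 19.4% of all genes were higher and 23.2% lower, and the median log2 ratio was 1.06. In iKO 37 members were 2-fold higher and 1 lower, beside 22.5% and 27.2% of all genes, with a median of 1.76. The activation values share libraries with the genotype ratios and are given beside them only.

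Core and regulatory subunits had like medians in WT activation, 1.19 and 1.18, with 9 of 14 and 10 of 17 members 2-fold higher. In iKO activation the medians were 2.13 and 1.67, with 14 of 14 and 14 of 17. The chaperones Psmd5 (2.81 in WT, 2.51 in iKO) and Psmg3 (2.18 and 3.42) had the highest ratios in WT. Psmd13 of the lid followed at 1.92 and 2.47, from 20.0 FPKM in FISC WT to 110 FPKM in ASC WT before scaling. Psmb8 was the member called lower in both genotypes (−1.41 and −1.84), and Psmb9 lay at −0.94 and −0.60. Psme1 (−0.97 and −0.18) and Psme2 (−0.43 and 1.05) were below 0 in WT, as was Psmg4 (−0.65 and 0.20). Several subunits that were high in fresh cells differed little in WT, including Psmd11 (0.03), Psmd8 (0.06), Psmc6 (0.15), Psmd4 (0.18) and Psmb4 (0.20). Across the 46 members the activation ratios of the genotypes, which share no library, had a Spearman correlation of 0.87.

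**Figure D5:**
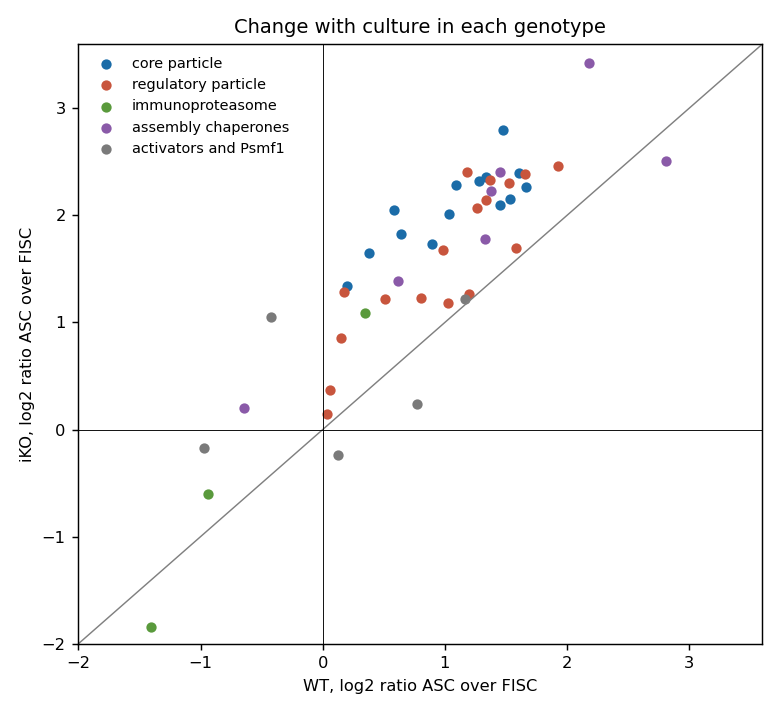
Log2 ratio of ASC over FISC in WT (horizontal) and iKO (vertical), each scaled to the median gene, for 46 proteasome genes by role; the diagonal marks equal ratios. All 14 core subunits lie above the diagonal, and Psmb8, at −1.41 and −1.84, is the lowest point.

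Other parts of the pathway were read from lists chosen by known role. The 8 proteasome parts and cofactors outside the symbol rule had a median of 0.81 in ASC, iKO over WT. Of these, 3 were 2-fold higher in ASC iKO and none lower, beside 8.74% and 8.26% of all genes. They were Shfm1, a small lid subunit (302 FPKM in ASC WT and 965 FPKM in ASC iKO, 1.67), Pomp, which matures the beta ring (193 and 397 FPKM, 1.03), and Txnl1, a bound thioredoxin (76.1 and 157 FPKM, 1.03). The ubiquitin receptor Adrm1 stood at 106 and 177 FPKM (0.73), while the deubiquitinase Usp14 (41.03 and 38.8 FPKM, −0.08, sharing its locus with Thoc1) and AI314180 (36.5 and 25.6 FPKM, −0.50), which tethers core and cap, did not follow. In FISC none of the 8 passed 2-fold, beside 0.677% higher and 0.721% lower of all genes, and the median was 0.02.

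Of the 5 regulators of proteasome transcription, none was 2-fold higher and 1 was lower in ASC iKO, beside 8.74% and 8.26% of all genes. Nfe2l1 stood at 65.6 and 62.0 FPKM in ASC WT and iKO (−0.08), and at 67.0 and 50.7 FPKM in FISC (−0.40). Its protease Ddi2 was at 16.0 and 15.4 FPKM in FISC and at 31.8 and 4.26 FPKM in ASC, a log2 ratio of −2.64 and 6.24-fold lower. The table lists Ddi2 at the locus of Rsc1a1, so the split between them is uncertain. Ngly1, which strips sugars from NFE2L1, was at 5.28 and 9.64 FPKM in ASC (0.76), Vcp at 228 and 317 FPKM (0.47) and Nfe2l2 at 73.2 and 81.7 FPKM (0.16).

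Ubiquitin genes and enzymes went both ways. In ASC WT and iKO, Rps27a, a ubiquitin fused to a ribosomal protein and listed with Clhc1, was at 1122 and 2588 FPKM (1.20), and the activating enzyme Uba6 at 14.1 and 4.13 FPKM (−1.56). Uba1, the main activating enzyme, stood at 199 and 154 FPKM (−0.37). The 5 measured shuttle factors, which carry ubiquitinated proteins to the cap, held a median of 0.01 with none past 2-fold, as Rad23b at 119 FPKM in both. Of 9 measured genes of class I antigen processing none was higher and 1 was lower, beside 8.74% and 8.26% of all genes. The 1 was Erap1, a peptide trimmer, at 10.4 and 4.45 FPKM (−1.07), and the median of the 9 was 0.05. With culture in WT 7 of the 10 listed genes were 2-fold lower and none higher, beside 23.2% and 19.4% of all genes. Among the 7 was H2-K1, at 582 FPKM in FISC WT and 89.1 FPKM in ASC WT. Irf1, a factor that induces Psmb8 and Psmb9, was another, at 84.5 and 13.6 FPKM. Of the ubiquitin ligases of muscle atrophy 2 of 4 were measured, Fbxo32 at 1.71 and 3.54 FPKM and Fbxo30 at 12.7 and 11.1 FPKM in ASC WT and iKO, neither past 2-fold.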

How the data were processed

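The authors deposited FPKM per gene, 1 table for FISC (24205 genes) and 1 for ASC (24312 genes), per the file headers. Tools listed in the submitters' processing notes are TopHat2, Cufflinks (version 2.2.1) and MACS2 (version 2.1.0), with the build mm9, and no role is stated for any of them. The annotation, the strand setting and how libraries were scaled are not stated. The authors also deposited 1 list of 2031 YY1 peaks with a score, a fold over background, −log10 p, −log10 q and a summit offset, the score not being used further. Total depth is unknown, so no intervals were computed.

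Ratios were log2 of FPKM + 1 for genes with at least 1 FPKM in either library, from the deposited values within a state and after median-gene scaling between states (factors 0.718 in WT and 0.702 in iKO). Locus starts count from 0 in the tables, as end minus start equalled the RefSeq length for 24 of 48 members, and 1 was added. The tables give no strand, and strands came from RefSeq. Every member was eligible to be named, other genes only from the pathway and marker lists (Mir762, Yy1, Psme2b and genes sharing a locus or peak aside), and levels in all 4 RNA libraries were due for catalytic subunits, members past 2-fold and the extremes of each role. For the list of ubiquitin genes and enzymes, 1 gene and the counts over the list are not reported here. The members and lists were chosen with earlier results of these data known. The functions were tested on simulated data (Python 3.11.15, pandas 2.3.3, numpy 2.4.6).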

Additional observations from a re-analysis of the deposited data

Results flagged for a closer look

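The iKO over WT ratio had opposite signs in the 2 states for 6 of the 13 proteasome genes that were 2-fold higher in ASC. Each group has 1 library, and the difference was not tested. In FISC 28 of all 46 measured members were below 0. The share of all genes with such opposite signs was not counted. Psma3 had a log2 ratio of −0.16 in FISC and 1.33 in ASC, and Psma6 −0.05 and 1.18. Psmb3 had −0.02 and 1.34, and Psmb4 −0.16 and 1.02. Psme2 had −0.19 and 1.33, and Psmg3 −0.09 and 1.19. The median of the 46 measured members was −0.02 in FISC and 0.78 in ASC. Each FISC value named here is within 1.5-fold, and that of Psmb3 is 0.01 with upper-quartile scaling.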

How the results depend on the processing

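Calling at 1.5-fold in ASC gave 32 higher and 1 lower members in place of 13 and 0, and equal sums outside small RNA genes, chosen after seeing the data, gave 0 and 1, where 1.46% of all genes were higher and 22% lower. For activation in WT the count of lower members, 1 as reported, was 2 with a pseudocount of 0.1 and 0 with equal sums of FPKM, with or without small RNA genes. Called at 1.5-fold, also chosen after seeing the data, 4 members were lower in WT activation and 2 in iKO activation (1 as reported), where 33.1% and 36.9% of all genes were. Equal sums over all genes moved the WT activation median from 1.06 to 1.64, and in iKO activation gave 24 higher members and a median of 1.07 in place of 37 and 1.76, as Mir762 enters that sum. The Psmb9 share in ASC WT was 1.37% with 1 FPKM added to each value. Peaks with −log10 q of at least 5 left 2 members. The other 70 planned and 12 added values kept within 1.5 times, or 1.5-fold for medians, and no ratio of a single gene moved by 1.5-fold among 547 recomputed. No paired analysis was possible because each group has 1 library.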
